A study of Homo sapiens with 5 samples.

Results

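The comparison of YFP-high with YFP-medium cells is the highest of 3 successive steps in the level of E2F1 in U2OS, a human osteosarcoma line. It sets 1 library against 1 library, out of 5 in the series, over 27992 gene names, of which 15099 reached at least 1 count per 1000000 gene reads (CPM) in at least 1 of the 5 libraries and were analysed. Both fractions came from cells labelled U2OS pTRIPZ-YFP-ER-E2F1, which carry an inducible fusion of yellow fluorescent protein (YFP), the hormone-binding part of the oestrogen receptor (ER) and E2F1. They were sorted by YFP brightness in a flow cytometer. The YFP-negative and YFP-low fractions came from the same labelled cells, and the parental library from U2OS. All 5 groups grew in 8% serum and carry the same treatment label: doxycycline at 500 ng/ml for 48 h, which switches on the construct, then 4-hydroxytamoxifen (OHT) at 90 nM for 20 h, which activates ER fusions. The labels do not state whether the line is 1 clone, how bright each gate was, or how many cells it held.

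E2F1 is a transcription factor that binds DNA together with a DP partner. The pocket protein RB1 holds it inactive until cyclin-dependent kinases phosphorylate RB1, and free E2F1 then turns on genes for DNA synthesis and cell cycle entry. E2F1 can also turn on genes that kill the cell, and the title of the series places its question there, in the level of E2F1 and the fate of the cell.

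With 1 library a group, the differences below lack any replicate check, and no p-value or standard deviation can be given. Gene reads lay between 70.7 M and 76.5 M per library. Folds carry an exact 95% counting interval, which covers counting error only. A call, higher or lower, needed a log2 ratio past 2-fold after 0.5 CPM had been added to both levels, and an interval that excluded no change. Only called genes are said to have risen or fallen. Where 5 levels are given, their order is parental, YFP-negative, YFP-low, YFP-medium, YFP-high, and a pair of levels is YFP-medium, then YFP-high. Reads in no annotated gene made up 9.41% of the YFP-medium library and 11.0% of the YFP-high library, the highest of the 5, and their part in the differences was not tested. Of 16 analysed mesenchymal and bone markers, VIM stood at 1982 TPM, a unit corrected for transcript length, in YFP-medium and 1935 TPM in YFP-high. SPARC stood at 694 and 602 TPM. TWIST2, the one called, went from 2.42 to 5.49 CPM (log2 1.04), just past the rule. TWIST2 was not called with total gene counts (0.98) or a pseudocount of 2 CPM (0.76). TWIST1, not among the 16, had 0 CPM in both fractions. Of the 10 endothelial markers 5 were analysed and none was called. ERG stood at 18.0 and 17.4 CPM, and the 5 analysed summed to 24.0 and 21.3 CPM. PECAM1, not among the 5, had 0 CPM in both fractions. Of the 12 leukocyte markers 3 were analysed and none was called. LCP1 stood at 14.3 and 15.6 CPM and CORO1A at 7.86 and 15.2 CPM (log2 0.91), and the 3 analysed summed to 26.6 and 35.2 CPM. PTPRC, not among the 3, stood at 0.163 and 0.0471 CPM. Of the 14 epithelial markers 7 were analysed and EPCAM rose, from 5.05 to 11.6 CPM, a call lost with a pseudocount of 2 CPM (log2 0.94), while their sum was 482 and 461 CPM. The part of these markers in the differences was not tested.

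E2F1 stood at 85.6, 106, 163, 362 and 998 CPM across the 5 libraries. Its level was higher at each gate than at the one before. E2F1 was 2.76-fold higher in YFP-high than in YFP-medium (interval 2.72 to 2.80), after 2.22-fold from YFP-low to YFP-medium and 1.53-fold from YFP-negative to YFP-low. Reads of the fusion and of the endogenous gene fall in the same row of counts. ESR1, an oestrogen receptor gene, had 16 reads in YFP-medium and 25 in YFP-high and was under the filter, so its reads give no measure of the fusion.

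Promoters of E2F1 and CDC25A are shown because both hold the E2F letters in the 250 bases before the start site. CDC25A rose. Cells were sorted on the E2F1 fusion, whose reads share the E2F1 row, so that row gives no measure of the endogenous promoter. The sequences are from RefSeq (GRCh38.p14), both on the minus strand, E2F1 at chr20:33686386-33686635 and CDC25A at chr3:48188418-48188667. Capitals mark TTTCCCGC, TTTCGCGC, TTTGCCGC or TTTGGCGC on either strand.
E2F1: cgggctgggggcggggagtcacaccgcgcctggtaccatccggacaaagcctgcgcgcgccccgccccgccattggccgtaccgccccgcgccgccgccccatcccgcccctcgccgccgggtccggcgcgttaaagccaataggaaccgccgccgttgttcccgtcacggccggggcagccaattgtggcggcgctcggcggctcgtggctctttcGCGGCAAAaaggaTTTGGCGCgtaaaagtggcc
CDC25A: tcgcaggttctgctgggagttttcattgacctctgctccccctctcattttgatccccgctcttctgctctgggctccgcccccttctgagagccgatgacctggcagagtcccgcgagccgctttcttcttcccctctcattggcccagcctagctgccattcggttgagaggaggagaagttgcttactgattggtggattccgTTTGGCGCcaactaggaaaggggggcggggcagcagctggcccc
E2F1 held 2 matches, which began 33 and 20 bases before the start site, and CDC25A held 1, which began 44 bases before it. These 2 promoters were picked for their matches. Among other genes that rose, GRIN3A held 1 match, and LHX3, C1QL2, BBC3, APAF1, HOXA13, EPAS1 and RANBP2 held 0. GINS2 and HIST1H2BK, not called, held 1 each. Of 27305 promoter windows of the same length in the table, 2.79% held a match. Only 73.4% of the analysed genes, 67.0% of the higher and 68.2% of the lower genes had a window, so no count of motifs over groups of genes was made.

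At this step 1385 genes rose and 198 fell, 10.5% of the genes analysed, and 13516 were in neither class. The median log2 ratio over all analysed genes was -0.07, so 0 is not the midpoint for counts of members below 0. Counts of members of a group that rose or fell are to be read against 9.17% of all analysed genes that rose and 1.31% that fell. These shares are not matched for level. By level in YFP-medium, 31.3% of analysed genes rose under 1 CPM, 13.0% at 1 to 10, 5.94% at 10 to 100 and 1.36% at 100 and over. The first share includes genes analysed only because they reached 1 CPM in YFP-high. The part of level in the group counts was not tested. The higher genes made up 87.5% of the called genes under the 2-fold rule and 61.9% under a 1.5-fold rule. The same rule called 2.13% of genes from YFP-negative to YFP-low, 2.92% from YFP-low to YFP-medium, and 5.05% between YFP-negative and parental cells. Neighbouring steps share a library, and E2F1 itself moved by different folds at each, so these shares are given side by side without a comparison.

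**Figure D1:**
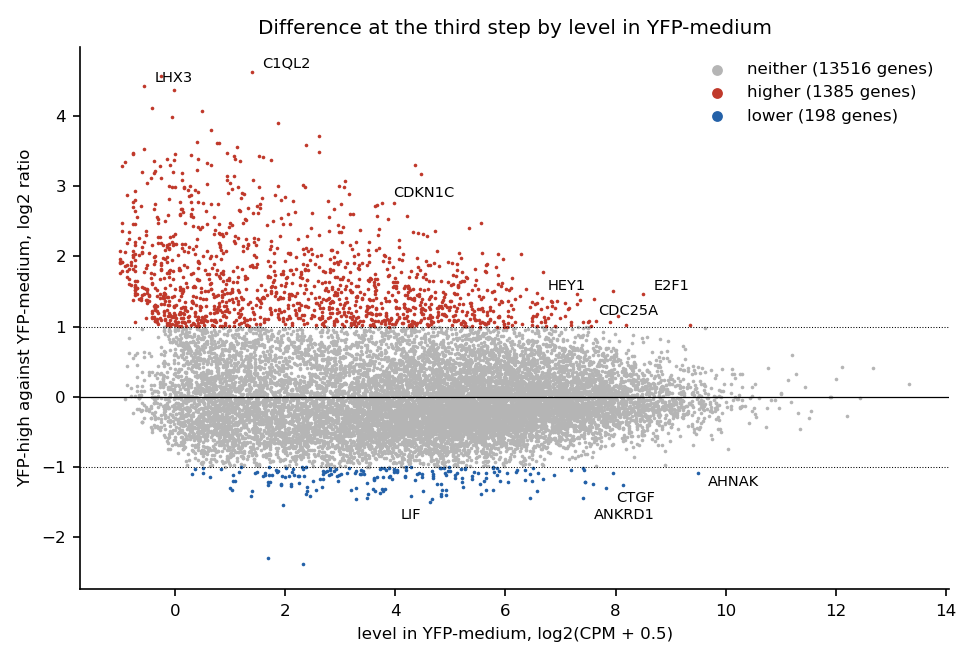
The plot shows 15099 genes, 1 point each, with the level in YFP-medium across, as log2 of CPM plus 0.5, and the log2 ratio of YFP-high to YFP-medium upwards; dotted lines mark 2-fold. The 1385 higher genes (red) reach far above the line at low levels, and the 198 lower genes (blue) stay close under it, apart from 2 pseudoautosomal genes.

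The genes that rose were low in YFP-medium, with a median of 3.71 CPM beside 22.4 CPM for all analysed genes, and reached a median of 14.4 CPM in YFP-high. Their median fold was 3.29, and 158 of them passed 10-fold. The genes that fell had medians of 13.2 and 5.84 CPM, a median fold of 2.35, and 1 of them, DHRSX, passed 10-fold. Summed over genes, the higher set went from 21244 to 58482 CPM and the lower set from 6693 to 2952 CPM. These are the called genes themselves, so their sums and medians are a description. Through YFP-high alone, 456 analysed genes reached 1 CPM, and 327 of them are among the higher genes. These had to be higher there in order to be analysed. Among the 14643 genes that passed through another library, 1058 rose (7.23%) and 198 fell (1.35%), the shares to set beside group counts that leave out members passing through YFP-high alone.

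**Figure D2:**
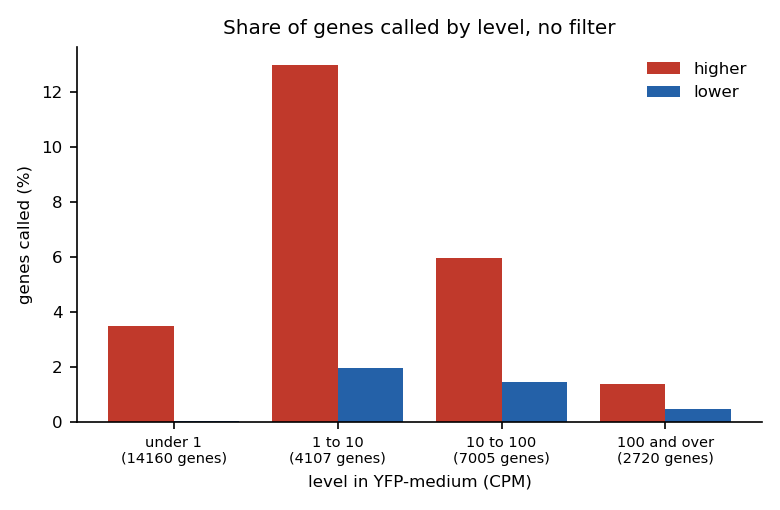
Bars give the percent of gene names called higher (red) or lower (blue) in YFP-high against YFP-medium, by level in YFP-medium and with no filter. The share of higher genes was 3.49% under 1 CPM, 13.0% at 1 to 10 CPM, 5.94% at 10 to 100 CPM and 1.36% at 100 CPM and over, and the lower share was 0.0282%, 1.95%, 1.46% and 0.478%. Of the 14160 gene names under 1 CPM, 8347 had a read in either fraction. The others could not be called, which lowers both shares under 1 CPM.

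Of the 1385 genes that rose, 1343 had their highest level of the 5 libraries in YFP-high, and 40 stood as high or higher in parental cells. Of the 198 that fell, 181 had their lowest level in YFP-high and 15 had their highest in YFP-medium. FAM203A rose after a fall from YFP-low to YFP-medium (5.19, 1.86 and 9.97 CPM), and RMRP, the RNA of RNase MRP, fell after a rise (2.75, 6.64 and 2.84 CPM; log2 -0.84 with a pseudocount of 2 CPM, not called), as did DHRSX. The first step, from YFP-negative to YFP-low, shares no library with the last. Of its 313 higher genes 47 rose again at the last step, 15.02% of them, beside 9.17% of all analysed genes. The same 47 are 3.39% of the 1385, beside 2.07% of all analysed genes that were higher at the first step. The median GC content of the transcripts was 53.4% for higher, 48.1% for lower and 48.5% for all analysed genes with a transcript in GENCODE v29. In 5 equal groups of genes by rising GC content the share that rose was 5.27%, 7.12%, 7.77%, 10.1% and 15.1%. The part of GC content in the counts was not tested.

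The largest folds were of genes nearly silent below. LHX3, a LIM homeobox factor of pituitary and motor neurons, had 0, 0.012, 0.103, 0.177 and 14.1 CPM across the 5 libraries. It was 79.5-fold higher at the last step (45.3 to 155), and none of the other 4 libraries was above 0.177 CPM. NTSR1, the neurotensin receptor, went from 0.34 to 19.4 CPM (57.1-fold, 37.9 to 90.4), and EPHA8, an ephrin receptor, from 0.251 to 12.5 CPM (49.7-fold, 30.9 to 85.8). C1QL2, a secreted C1q-like protein, stood at 0.303, 0.781, 0.426, 2.13 and 64.8 CPM and was 30.4-fold higher (25.8 to 36.2). GPR26, an orphan receptor, had 2 reads in YFP-medium and 313 in YFP-high, a ratio of 166 (45.6 to 1378). SYNDIG1L and RSPO3, a WNT potentiator, had 0 reads in YFP-medium and 92 and 103 in YFP-high, at least 32.6-fold and 36.5-fold higher against a floor of 3 reads. In all, 5 higher genes had 0 reads in YFP-medium, and 10 had at most 3 reads in each of the other 4 libraries. OTOP2, LY6H and CCDC166 were among these 10, as was HBA2, whose reads may be split with its near-identical copy HBA1. With a pseudocount of 2 CPM the log2 ratios of SYNDIG1L, RSPO3, LY6H, CCDC166 and HBA2 were 0.78, 0.85, 0.87, 0.76 and 0.76, short of a call. CD99, ASMTL and DHRSX, which lie in the pseudoautosomal region with a copy on each sex chromosome, also had large folds and are uncertain for that reason: CD99 had 33 and 1269 reads, ASMTL 305 and 29, DHRSX 185 and 10.

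By absolute gain the order was different. RANBP2, a nuclear pore protein, went from 652 to 1325 CPM (2.03-fold, 2.01 to 2.06), the largest difference in CPM among higher genes. SLC9A3R1, a scaffold protein at the cell cortex, went from 246 to 698 CPM (2.83-fold, 2.78 to 2.89), and REST, a repressor of neuronal genes, from 262 to 585 CPM (2.23-fold, 2.19 to 2.27). RANBP2 lies near the 2-fold rule and was not called with total gene counts as the scaling (log2 0.97). Its reads may also be split with the RGPD genes, which are related copies.

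**Figure D3:**
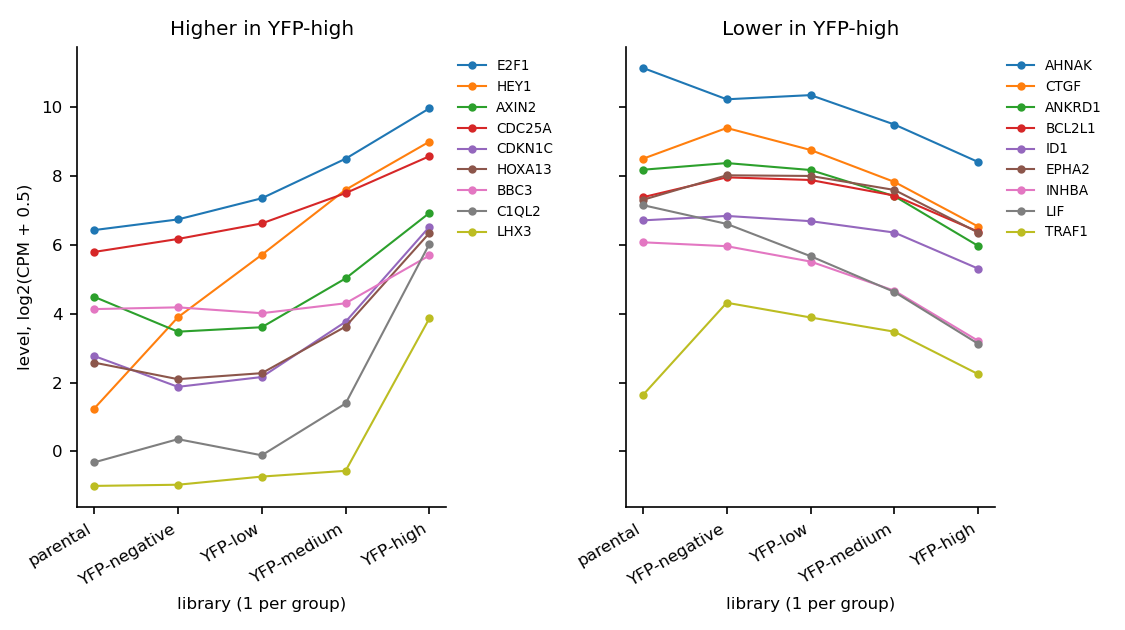
Levels of 18 called genes, as log2 of CPM plus 0.5, in the 5 libraries (1 library a group, lines join the libraries). The 9 genes on the left end highest in YFP-high; of the 9 on the right, TRAF1 stands lower in parental cells than in YFP-high and the other 8 have their lowest level in YFP-high.

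Of 19 analysed E2F, DP and pocket protein genes only E2F1 was called, as higher, and the median log2 ratio was -0.01. The cells were sorted on the E2F1 fusion, so the rise of the E2F1 row was selected by the sort. No other member was called. E2F2, an activator, stood at 118 and 196 CPM (log2 0.73) and E2F5, a repressor, at 2.5 and 5.34 CPM (log2 0.96). RB1 stood at 243 and 195 CPM, and the DP partner TFDP1 at 524 and 512 CPM. None of these 4 was called.

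Of 10 analysed G1/S cyclins and kinase partners CDC25A alone rose. CDC25A, the phosphatase that frees CDK2 from inhibition, stood at 55, 71.5, 98, 181 and 381 CPM across the 5 libraries. It rose at the last step by 2.11-fold (2.06 to 2.15) and was highest there. CCNE1, cyclin E1, stood at 657 and 721 CPM, and CDK6 at 174 and 98.7 CPM (log2 -0.82). Of 25 origin licensing and firing genes none was called (median log2 -0.09); GINS2, of the replicative helicase, had the highest ratio, from 51.2 to 92.5 CPM (log2 0.85), and ORC2 the lowest, from 26.8 to 15.3 CPM (log2 -0.79). Of 35 genes of the replication fork and nucleotide supply none was called either (median -0.12), and their summed level was 8558 and 8488 CPM.

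No gene of the mitosis and spindle list was called, and all 45 members had a lower level in YFP-high than in YFP-medium, with log2 ratios from -0.93 to -0.09 and a median of -0.44, and this held for 45 of 45 under each of the 3 other scalings. Of the 45, 37 had their highest level of the 5 libraries in YFP-medium and none in YFP-high. Their summed level was 9603, 8799, 12824, 14584 and 11130 CPM across the 5 libraries. YFP-high thus stood above parental and YFP-negative cells and below the other 2 fractions. AURKB, the Aurora kinase of the chromosomal passenger complex, had the lowest ratio, at 63.3 and 33.1 CPM, and KIF20A, a kinesin of cytokinesis, stood at 103 and 55.5 CPM. In bulk RNA, fewer cells in mitosis and less RNA per cell cannot be told apart. Other broad lists had no call or few: of 53 cytosolic ribosomal protein genes none was called and 50 were below 0 (48 to 51 under other scalings; median -0.15), and of 18 housekeeping genes none was called (median -0.04).

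Among 7 analysed brakes on the cell cycle, CDKN1C, the CDK inhibitor p57, was the one that rose. It stood at 6.34, 3.17, 3.97, 13.1 and 91.7 CPM across the 5 libraries. YFP-high was far above the rest, 6.99-fold over YFP-medium (6.51 to 7.51). The other 6 analysed inhibitors were not called. CDKN2C, p18, stood at 379 and 495 CPM (log2 0.39) and CDKN1A, p21, at 419 and 382 CPM. CDKN2A, the listed inhibitor under the filter, had 0 CPM in both fractions.

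Of 13 genes of the pro-apoptotic BCL2 family, whose products breach mitochondria or set free those that do, 3 rose (23.1%, beside 9.17% of all analysed genes) and none fell, with a median of 0.03. BBC3, which encodes PUMA, stood at 17.1, 17.7, 15.7, 19.2 and 51.2 CPM across the 5 libraries, so that the first 4 libraries lay close together and YFP-high stood above them. Its fold over YFP-medium was 2.66 (2.49 to 2.84). HRK, a BH3-only protein, rose from 3.55 to 11.9 CPM (3.36-fold, 2.90 to 3.90) and BIK, another, from 1.05 to 4.22 CPM (4.02-fold, 3.09 to 5.30). BAX, a pore-forming effector, stood at 92.1 and 62.5 CPM and BAK1 at 46.7 and 30.6 CPM, not called. APAF1, the core of the apoptosome, rose from 146 to 297 CPM, just past the rule (2.04-fold, 1.99 to 2.09), after 37.5 in parental cells, 38.7 in YFP-negative and 68.5 in YFP-low, and was not called with total gene counts (log2 0.97). CASP10, an initiator caspase, fell from 2.6 to 0.957 CPM (2.72-fold, 2.02 to 3.70), the other call among 16 apoptosome and caspase genes, which was lost with a pseudocount of 2 CPM (log2 -0.64) and in the deposited TPM (-0.77).

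Of 12 analysed survival genes 3 fell and none rose, beside 1.31% of all analysed genes that fell, and the median was -0.62. BCL2L1, which encodes BCL-XL, stood at 166, 248, 236, 172 and 82.8 CPM across the 5 libraries. YFP-high was the lowest library, 2.08-fold under YFP-medium (2.01 to 2.15), a call lost with TMM factors from both fractions alone (log2 -0.997). TRAF1, an adaptor of TNF receptors, fell from 10.6 to 4.24 CPM (2.51-fold, 2.18 to 2.90) and BCL2A1 from 3.12 to 1.22 CPM (2.55-fold, 1.96 to 3.35), the second not called with a pseudocount of 2 CPM (log2 -0.67). Each of these settings left 2 of the 3 calls. Both had been lower still in parental cells, at 2.61 and 0.277 CPM. BCL2 itself stood at 261 and 252 CPM and MCL1 at 433 and 334 CPM.

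Of 20 analysed death receptor and stress kinase genes 1 rose and 1 fell. MAP3K1, a kinase upstream of JNK, rose from 32.5 to 100.05 CPM (3.08-fold, 2.93 to 3.24), and TNFRSF1A, the main TNF receptor, fell from 54.5 to 21.5 CPM (2.54-fold, 2.39 to 2.70). The other 18 analysed members were not called. Of 31 p53 family and target genes BBC3 and SESN1 rose (6.45%, beside 9.17% of all analysed genes) and none fell. In this list 20 of 31 were below 0, with a median of -0.27. SESN1, a stress-induced regulator of nutrient signalling, stood at 23.8 and 48.9 CPM (2.06-fold, 1.94 to 2.18). Its call was lost with total gene counts (log2 0.97) and with a pseudocount of 2 CPM (0.98). Of 34 DNA damage checkpoint and repair genes none was called (median -0.29), and H2AFX stood at 311 and 199 CPM (log2 -0.65).

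Of 22 analysed NOTCH pathway genes 8 rose and 1 fell, with a median of 0.74; without the 2 that reached 1 CPM in YFP-high alone, DLL4 and HEYL, 6 of 20 rose, beside 7.23% of all genes that passed that way. The ligands DLL1, JAG2 and JAG1 rose. DLL1 stood at 2.31 and 18.0 CPM (7.81-fold, 6.6 to 9.29), JAG2 at 48.1 and 129 CPM (2.69-fold, 2.58 to 2.80), and JAG1, named after its values were seen, at 47.4 and 114 CPM. The receptors NOTCH1, NOTCH2 and NOTCH3 were not called. The target HEY1, a repressor that NOTCH induces, stood at 1.87, 14.4, 51.9, 194 and 510 CPM across the 5 libraries. It rose at every step, by 2.64-fold at the last (2.58 to 2.69). MAML2, a coactivator, was the member that fell, from 4.95 to 1.55 CPM, named because the count was 1, and was not called with a pseudocount of 2 CPM (log2 -0.97).

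In the WNT pathway 20 of 45 analysed genes rose and none fell, with a median of 0.84. Without the 6 that passed through YFP-high alone, 14 of 39 rose (35.9%, beside 7.23% of all genes that passed that way; median 0.60). The ligand WNT3A stood at 6.63, 3.85, 4.81, 6.7 and 30.3 CPM across the 5 libraries, 4.52-fold over YFP-medium (4.08 to 5.02). WNT4 went from 2.68 to 16.9 CPM (6.31-fold, 5.38 to 7.42), and WNT2 from 0.0887 to 6.04 CPM, which is 6 and 385 reads. The receptor FZD10 went from 0.503 to 7.47 CPM (14.9-fold, 10.5 to 21.7). AXIN2, a feedback inhibitor that WNT signalling induces, stood at 22, 10.6, 11.7, 32.1 and 121 CPM across the 5 libraries and rose by 3.78-fold (3.60 to 3.96). CTNNB1, the beta-catenin gene, stood at 174 and 163 CPM.

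**Figure D4:**
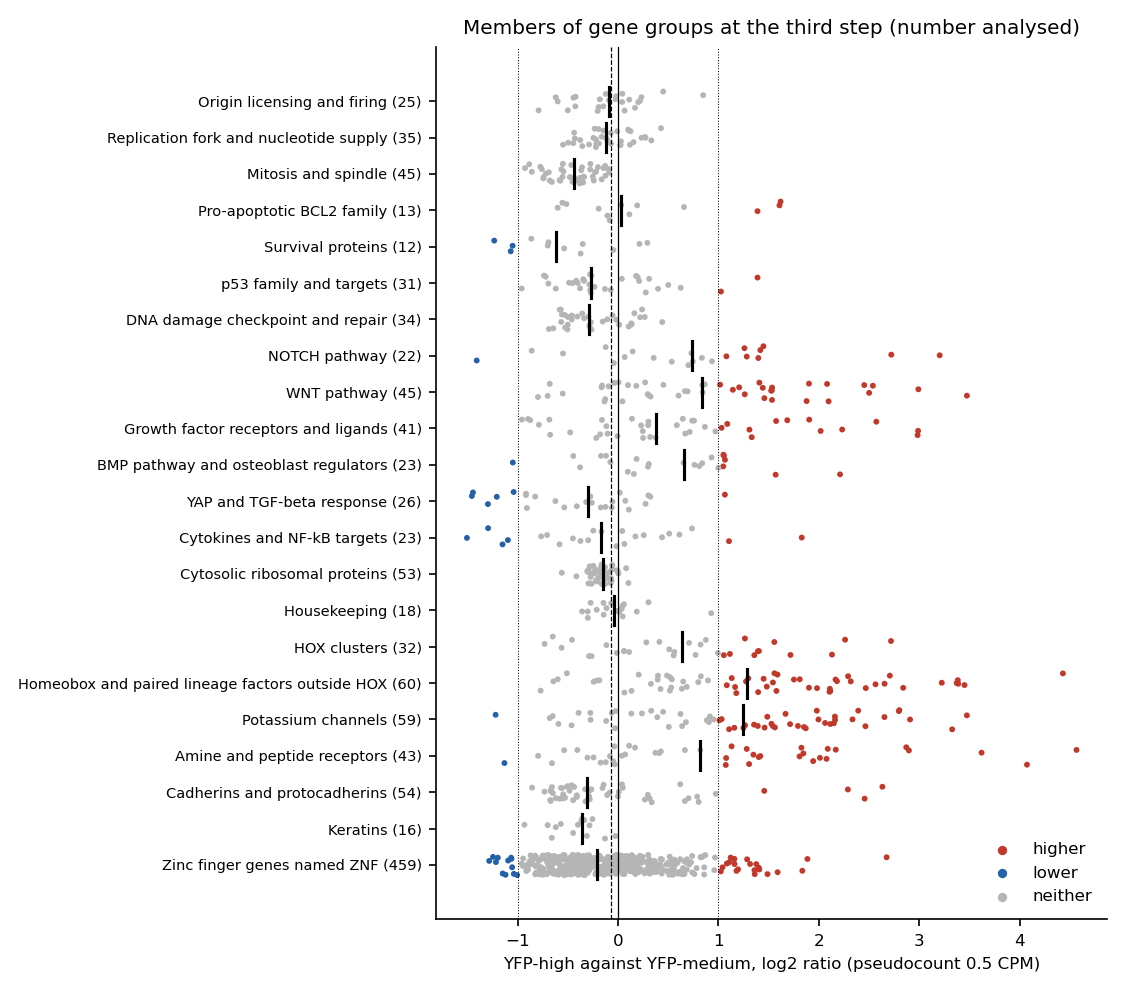
Each point is 1 analysed gene and shows its log2 ratio of YFP-high to YFP-medium (red higher, blue lower, grey neither); bars mark group medians, dotted lines 2-fold, the dashed line the median of all genes, -0.07, and numbers in brackets the members analysed. NOTCH, WNT, BMP, homeobox and potassium channel groups spread to the right, and the 45 mitosis genes and 16 keratins lie left of 0. The survival, YAP and cytokine lists reach past the lower line. So do the NOTCH, BMP, potassium channel, amine and peptide receptor and ZNF groups.

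Of 41 growth factor and receptor genes 12 rose and none fell with a median of 0.37; without the 2 that passed through YFP-high alone 10 of 39 rose (25.6%, beside 7.23%). PDGFRA, a PDGF receptor, stood at 30.8, 8.97, 7.24, 7.89 and 66.1 CPM across the 5 libraries. It was 8.37-fold over YFP-medium (7.65 to 9.18), and parental cells were the second highest library. NTRK2, the BDNF receptor, went from 16.3 to 78.3 CPM (4.81-fold, 4.51 to 5.14) after 0.429 CPM in parental cells, 1.69 in YFP-negative and 3.26 in YFP-low. The ligand FGF4 went from 1.71 to 17.0 CPM (9.92-fold, 8.19 to 12.1), and TGFA, an EGF receptor ligand, from 25.5 to 96.9 CPM (3.80-fold, 3.60 to 4.01). The EGF receptor EGFR stood at 36.5 and 22.7 CPM (log2 -0.68), not called. Of 23 BMP and osteoblast genes 6 rose (26.1%) and 1 fell (4.35%), beside 9.17% and 1.31% of all analysed genes (median 0.65). Only 3 rose with total gene counts or a pseudocount of 2 CPM. BMP7 rose from 7.69 to 37.4 CPM (4.87-fold, 4.42 to 5.36) and MSX2, a homeobox factor of bone, from 15.1 to 45.8 CPM (3.03-fold, 2.82 to 3.26). Of the ID genes, inhibitors of basic helix-loop-helix factors, ID4 rose from 37.4 to 78.7 CPM (2.11-fold, 2.01 to 2.21), and ID1 fell from 81.5 to 39.1 CPM (2.08-fold, 1.99 to 2.18), a call lost with TMM factors from both fractions alone (log2 -0.99).

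Of 30 immediate early and MAP kinase feedback genes 5 rose and 1 fell. Without the 2 that passed through YFP-high alone, EGR4 among them, 3 of 28 rose (10.7%), near the 7.23% of all genes that passed that way. FOS stood at 46.9, 41.1, 30.03, 39.5 and 110 CPM across the 5 libraries and rose by 2.79-fold (2.67 to 2.92), while FOSL1 stood at 67.8 and 38.3 CPM and JUN at 161 and 107 CPM, not called. EGR4 and EGR2 rose, from 0.473 to 8.44 and from 2.85 to 9.42 CPM, and KLF6, a zinc finger factor, fell from 36.7 to 16.2 CPM (2.27-fold, 2.11 to 2.44).

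Of 26 YAP and TGF-beta response genes 5 fell (19.2%, beside 1.31% of all analysed genes) and 1 rose, and 19 were below 0 (19 to 20 under other scalings; median -0.30). The promoters of CTGF (CCN2 in RefSeq) and ANKRD1 are shown because these targets of YAP and its DNA-binding partner TEAD fell together. They are from RefSeq (GRCh38.p14), minus strand, CTGF at chr6:131951373-131951622 and ANKRD1 at chr10:90921088-90921337. Capitals mark GGAATG, the letters TEAD factors bind, and TGANTCA, those of AP-1 factors, on either strand.
CTGF: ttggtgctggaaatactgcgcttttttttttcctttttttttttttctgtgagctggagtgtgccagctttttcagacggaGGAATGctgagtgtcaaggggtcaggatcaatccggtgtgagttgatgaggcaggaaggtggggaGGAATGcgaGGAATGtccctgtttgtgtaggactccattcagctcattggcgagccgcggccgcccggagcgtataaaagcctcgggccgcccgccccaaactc
ANKRD1: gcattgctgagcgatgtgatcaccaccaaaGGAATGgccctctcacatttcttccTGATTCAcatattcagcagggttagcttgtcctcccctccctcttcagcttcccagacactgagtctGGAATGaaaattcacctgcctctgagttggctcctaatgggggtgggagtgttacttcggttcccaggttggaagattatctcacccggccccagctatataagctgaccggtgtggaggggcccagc
CTGF held 3 TEAD matches and ANKRD1 held 2, with 1 AP-1 match between them. Among other genes that fell, EPHA2 and ODZ2 held 1 TEAD match each and IL8 held 1 AP-1 match. INHBA, of the same list, held 0 of either, as did AHNAK, ITGA2, ID1, KLF6, BCL2L1, BCL2A1 and NOP16. Of 27305 windows 11.9% held a TEAD match and 6.6% an AP-1 match. A match is a description of the letters and says nothing about binding here.

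CTGF, a secreted matrix protein, stood at 361, 672, 431, 227 and 91.9 CPM across the 5 libraries. ANKRD1, a nuclear ankyrin protein, stood at 290, 331, 288, 170 and 62.1 CPM. Both were highest in YFP-negative and lowest in YFP-high, where they fell by 2.46-fold (2.39 to 2.54) and 2.74-fold (2.64 to 2.84) from YFP-medium. INHBA, a subunit of activin, fell from 24.9 to 8.76 CPM (2.84-fold, 2.58 to 3.14). CYR61, also a secreted matrix protein, fell too and stood at 73.5 and 35.5 CPM, and its call was lost with TMM factors from both fractions alone (log2 -0.99), which left 4 calls. SMAD7, an inhibitor of TGF-beta signalling, rose from 24.9 to 52.6 CPM (2.11-fold, 1.99 to 2.24). YAP1 stood at 291 and 359 CPM and TEAD1 at 674 and 842 CPM, not called.

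Among 23 analysed cytokine and NF-kB target genes 4 fell (17.4%, beside 1.31% of all analysed genes) and 2 rose (8.7%, near the 9.17% of all). LIF, an IL-6 type cytokine, stood at 142, 97, 50.4, 24.3 and 8.22 CPM across the 5 libraries. It was lower in each library than in the one before, by 2.95-fold at the last step (2.67 to 3.26). The chemokines CCL2 and IL8 fell, from 9.31 to 3.5 CPM (2.66-fold, 2.28 to 3.11) and from 22.0 to 9.997 CPM (2.20-fold, 2.00 to 2.41). IL8 was not called with a pseudocount of 2 CPM (log2 -0.998), a setting that left 2 of the 4 falls of the list. CXCL3 rose from 1.09 to 5.16 CPM (4.72-fold, 3.66 to 6.16). The largest falls in CPM were elsewhere. AHNAK, a giant scaffold protein, stood at 2253, 1197, 1302, 720 and 338 CPM across the 5 libraries (2.13-fold at the last step, 2.10 to 2.16), and the ephrin receptor EPHA2 went from 193 to 81.4 CPM (2.37-fold, 2.29 to 2.44). ODZ2, a teneurin, went from 280 to 117 CPM, and NNMT, a nicotinamide methyltransferase, from 246 to 116 CPM.

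Of 60 analysed homeobox and paired factors outside the HOX clusters 35 rose and none fell; 11 of the 60 passed through YFP-high alone, and of the other 49, 24 rose (49.0%, beside 7.23% of all genes that passed that way; median 0.90). PITX3, of dopamine neurons, went from 1.64 to 21.9 CPM (13.4-fold, 11.0 to 16.4), and POU4F2, of retinal ganglion cells, from 0.724 to 12.9 CPM (17.8-fold, 13.3 to 24.2). Of 32 HOX genes 11 rose and none fell (9 of 30 without those passing through YFP-high alone, or 30%). HOXA13, the factor of the distal limb, stood at 5.48, 3.79, 4.34, 11.9 and 80.8 CPM across the 5 libraries. The last library stood apart, 6.82-fold over YFP-medium (6.33 to 7.35). In smaller families, 4 of 14 GATA and TBX factors, 6 of 25 forkhead factors and 3 of 12 SOX factors rose, and none fell. Of 10 basic helix-loop-helix lineage factors 5 rose and none fell. Without those passing through YFP-high alone the counts were, in the same order, 2 of 12, 5 of 23, 3 of 12 and 1 of 6. With so few members they are given as counts only. TAL1, a basic helix-loop-helix factor of blood cells, went from 6.86 to 46.4 CPM (6.77-fold, 6.14 to 7.48). FOXC1 went from 19.1 to 67.3 CPM (3.53-fold, 3.31 to 3.76), and SOX8 from 0.695 to 8.21 CPM (11.8-fold, 8.76 to 16.3). Of 459 analysed zinc finger genes named ZNF, 22 rose (4.79%) and 12 fell (2.61%), beside 9.17% and 1.31% of all analysed genes. Their median was -0.21.

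Of 59 potassium channel genes 34 rose and 1 fell (28 of 53 without those passing through YFP-high alone, 52.8% beside 7.23%; median 1.03). KCNF1, a modulatory subunit, stood at 1.54, 1.08, 0.606, 1.43 and 21.0 CPM across the 5 libraries, 14.6-fold at the last step (11.9 to 18.2). KCNJ4, an inward rectifier, went from 1.45 to 14.1 CPM (9.75-fold, 7.91 to 12.1). Of 30 calcium and sodium channel genes 13 rose and none fell (12 of 29 without the 1 passing through YFP-high alone, 41.4%), among them CACNA1G, a T-type channel, from 4.97 to 20.5 CPM (4.13-fold, 3.66 to 4.67). Of 37 subunits of transmitter receptors 15 rose (9 of 31 without those passing through YFP-high alone, 29.03%), with GABBR2, of the GABA-B receptor, from 12.1 to 83.1 CPM (6.85-fold, 6.36 to 7.38). Of 43 amine and peptide receptors 21 rose and 1 fell (14 of 36 without those passing through YFP-high alone, 38.9%). DRD1, a dopamine receptor, stood at 18.8, 2.2, 1.06, 1.24 and 20.9 CPM, so that parental and YFP-high cells lay close together and the 3 fractions between them were low. Of 16 neuronal markers 10 were analysed and 2 rose (1 of 9 without the 1 passing through YFP-high alone), among them NEFL from 38.9 to 90.5 CPM, and DCX stood at 0.0296 and 0.0942 CPM. The 10 summed to 518 and 624 CPM, and to between 301 and 393 CPM in the other 3 libraries; the part of these markers in the channel and receptor counts was not tested.

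Of 54 cell adhesion genes of the cadherin and protocadherin families 4 rose (7.41%) and none fell, and 37 were below 0 (36 to 39 under other scalings; median -0.31). PCDH1 rose from 4.05 to 27.7 CPM (6.84-fold, 6.02 to 7.80). All 16 analysed keratins were below 0 and none was called (15 of 16 below 0 with DESeq2 size factors and with TMM factors from both fractions alone; median -0.36). Of 42 matrix and adhesion genes 2 rose and 1 fell: ITGB4 from 105 to 226 CPM (2.14-fold, 2.08 to 2.21), ITGA11 from 1.98 to 4.52 CPM, not called with total gene counts, a pseudocount of 2 CPM or the deposited TPM (log2 0.96, 0.71 and 0.87), and ITGA2 down from 42.7 to 20.0 CPM (2.13-fold, 2.00 to 2.28), all integrin subunits.

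Of 34 hypoxia and glycolysis genes 6 rose (17.6%) and 1 fell (2.94%), beside 9.17% and 1.31% of all analysed genes. The median was 0.08. EPAS1, the hypoxia-inducible factor 2 alpha, stood at 25.6, 41.1, 47.1, 77.7 and 319 CPM across the 5 libraries and rose by 4.11-fold (3.99 to 4.24). HK2, a hexokinase, had its lowest level in YFP-medium, 36.8 CPM, and 127 CPM in YFP-high (3.46-fold, 3.30 to 3.62), and NDRG1 went from 157 to 393 CPM (2.49-fold, 2.44 to 2.55). The glucose transporter SLC2A3 fell from 29.9 to 11.0 CPM (2.73-fold, 2.50 to 2.98). Of 36 autophagy and lysosome genes TFEB, their transcriptional regulator, and DRAM1 rose and none fell. TFEB stood at 6.95, 7.15, 7.86, 13.5 and 55.7 CPM across the 5 libraries (4.11-fold, 3.82 to 4.43), yet the median of the list was -0.11. Of 21 interferon-stimulated genes USP18, a brake on interferon signalling, rose from 14.0 to 50.6 CPM (3.62-fold, 3.37 to 3.90), and 17 were below 0. RRS1 and NOP16 fell among 32 ribosome biogenesis genes, from 34.1 to 15.9 and from 27.6 to 13.3 CPM; NOP16 was not called with DESeq2 size factors, TMM factors from both fractions alone or a pseudocount of 2 CPM (log2 -0.99, -0.97 and -0.95). No gene was called among 31 cholesterol and fatty acid, 36 oxidative phosphorylation, 30 ATF4 response, 29 chaperone and 27 Polycomb and DNA methylation genes.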

How the data were processed

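RNA from 5 libraries (parental, YFP-negative, YFP-low, YFP-medium, YFP-high, 1 each) was sequenced. The authors deposited raw counts of reads per gene name, made, per the submitters' processing notes, with HISAT2 2.0.3 and HTSeq 0.6.0 among the tools and hg19 among the builds, beside Trimmomatic 0.36, bcl2fastq and CASAVA 1.8.2, with no order or settings. A second deposited table gives TPM per gene name, made with a tool not stated in the sources used here. The strand setting of the counting is not given in those sources either, so a gene and an overlapping or antisense neighbour cannot be told apart. Library sizes and ratios used gene rows alone, which held 77.5% of counted reads in YFP-medium and 75.7% in YFP-high; a row that names no gene held 254 and 682 reads.

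Counts were scaled with TMM factors from edgeR 4.0.16 (R 4.3.3), 0.935 in YFP-medium and 0.901 in YFP-high, over gene reads of 72.4 M and 70.7 M. Genes with at least 1 CPM in 1 of 5 libraries were kept. Log2 ratios used a pseudocount of 0.5 CPM and so understate the change of low genes. Folds leave it out and carry Clopper-Pearson intervals at 95%. PCR copies of a molecule count as separate reads, so intervals and the floor of 3 reads cover counting error only. A log2 ratio, pseudocount included, of at least 1 in size, together with an interval excluding 1, made a call; there was no test. The intervals came from scipy 1.17.1 and the plots from matplotlib 3.10.9, under Python 3.11.15 with pandas 2.3.3 and numpy 2.4.6. Promoters came from RefSeq and transcript GC content from GENCODE v29 by gene name.

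The 38 gene lists, 20 families, rules and alternatives were chosen with earlier results of these data known, and the patterns of 6 families were narrowed after a first look so that they took no unrelated genes. Named genes are E2F1, ESR1, per direction the 15 with the bound of the interval farthest from 1, the 5 per direction with the largest CPM difference, called members of lists (5 at most, with at least 5 CPM where there were more), 3 per family and 5 per class of pattern across steps. Not all of them are described, and 2 called genes are not reported here. Uncalled list members given beside them as reference points, and JAG1, MAML2, CYR61 and HEYL, were picked with their values in view. The alternatives tried were total gene counts, size factors of DESeq2 1.42.0, TMM on both fractions alone, no filter, 5 CPM, 1 CPM in either fraction, a pseudocount of 2 CPM, the deposited TPM, a 1.5-fold rule and, added after seeing the data, leaving out pseudoautosomal and near-identical genes.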

Additional observations from a re-analysis of the deposited data

How the results depend on the processing

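Of 1385 higher genes, the 3 other scalings gave 1267 to 1473, the other filters 958 to 1480, the deposited TPM 1284 and a pseudocount of 2 CPM 935. The 198 lower genes became 149 to 242 under other scalings and 80 with a pseudocount of 2 CPM. A 1.5-fold rule called 2661 higher and 1638 lower. Leaving out pseudoautosomal and near-identical genes gave 1383 and 196. No gene called in either direction was called the other way under any of these settings. Counts of higher members also fell with a pseudocount of 2 CPM. They went from 34 to 24 for potassium channels, 15 to 9 for transmitter receptor subunits and 21 to 16 for amine and peptide receptors. The WNT pathway went from 20 to 15 and the homeobox and paired factors outside HOX from 35 to 29. Of 194 named genes 135 kept their call in every setting that tested them and none reversed. Of 58 list and family medians 2 reversed: the oestrogen receptor list, -0.13, became 0.0446 with no filter and 0.168 with the 5 CPM filter, and the leukocyte markers, 0.12, became -0.0057 with no filter; the cause was not tested. No paired analysis was possible because each group holds 1 library, and for the same reason no library could be left out. Depth limits the genes near the floor of 3 reads, which is 0.0443 CPM in YFP-medium.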
